A study of Mus musculus with 480 samples.

Results

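Bronchioalveolar stem cells (BASCs) of 2 mouse reporter lines were compared: those of BASCs-Tracer (85 cells on plate A1 and 53 on plate A2) against those of Scgb1a1-TD (38 cells), together 176 of the 480 single cells sequenced. Cells were chosen by their labels alone, namely a cell sub-type of BASCs and a source of either line; no measured value entered the choice. BASCs-Tracer mice carry 3 alleles, Sftpc-DreER, Scgb1a1-CreER (spelled Scgba1a1-CreER in the labels) and R26-RSR-LSL-tdTomato, so that tdTomato needs a Dre recombinase driven by Sftpc as well as a Cre recombinase driven by Scgb1a1. Scgb1a1-TD mice carry Scgb1a1-CreER with an R26-tdTomato reporter that needs the Cre alone. Both groups therefore share the Scgb1a1-driven Cre and a tdTomato reporter, and differ in the Sftpc-driven Dre and in the reporter allele. Another line, Sftpc-TD (Sftpc-DreER with R26-RSR-tdTomato), holds 11 more BASCs, whose levels are given beside some results. Lungs were digested with enzymes and single cells were sorted. The Scgb1a1-TD BASCs lay on plates A2 (5 cells), A3 (23 cells) and A4 (10 cells), so plate A2 alone holds both. The labels used here name no animal, age or inducing dose, and how the sub-type was assigned is not given.

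BASCs sit at the junction of the terminal airway and the alveoli and make products of both compartments, the secretoglobin Scgb1a1 of airway club cells and the surfactant protein Sftpc of alveolar type 2 (AT2) cells. After airway or alveolar injury they can give rise to either lineage. Lung epithelial cells also carry inducible programmes that any cell can switch on within minutes to hours: immediate early transcription factors such as Fos and Egr1, heat shock chaperones, and NF-kappa B targets such as the neutrophil-attracting chemokines.

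The tracer BASCs held 106587371 reads assigned to genes (median 775502 per cell, range 21951 to 3233511) and the Scgb1a1-TD BASCs 39750140 reads (median 1091820, range 64939 to 1406784). A median of 4993 genes per cell had a read in tracer BASCs and 4616.5 in Scgb1a1-TD BASCs. Thinned to 100000 reads per cell, which left 84 and 49 tracer BASCs on plates A1 and A2 and 37 Scgb1a1-TD BASCs, the medians were 3165 and 3029 genes. Mitochondrial genes took a median of 3.03% of reads in tracer BASCs and 3.86% in Scgb1a1-TD BASCs. Levels below are reads summed over the cells of a group, or of a group on 1 plate, per 1000000 reads assigned to genes (CPM). Ratios are log2 of BASCs-Tracer over Scgb1a1-TD after adding 1 CPM to each. Because no label names an animal, each line is 1 sample: no test was run, no difference has a replicate check, and differences between animals, plates and lines cannot be told apart. Intervals are at the 95% level and cover counting error only. Where no cell reached 10 reads of a gene after thinning, the limit is given as 3 cells of the total. The upper end of the exact interval stands beside it. Such a count of 0 does not mean that the gene had no reads. The 5 Scgb1a1-TD cells on plate A2 held 1912086 reads in all, so a level of 1.57 CPM there rests on 3 reads.

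Of 10447 genes measured (5 CPM or more in either group), 21.1% were 2-fold or more higher and 10.2% were 2-fold or more lower in tracer BASCs. The median log2 ratio of all measured genes was 0.18. The 2209 higher and 1070 lower genes are 67.4% and the rest of these calls; scaled by the median of the gene ratios, the higher share of calls was 53.7%, and the median of all genes moved to -0.05. Without plate A1, 1983 genes were higher and 2220 lower. In genes with a read in at least 50% of the cells of both groups, 247 of 3186 were higher and 46 lower. A stricter count took genes whose level on both tracer plates lay beyond all 3 Scgb1a1-TD plates: 12.8% of measured genes were higher in this way and 1.76% were lower. The counts for gene lists below are read against these shares. Genes of a list that are named below are its most abundant members or, for the rest, were chosen after their values were seen.

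The defining pair of genes went opposite ways. Scgb1a1 (ENSMUSG00000024653, GRCm38 chromosome 19, 9083636 to 9087958) stood at 15055 and 10715 CPM on the tracer plates A1 and A2, against 3918, 3355 and 3794 CPM on the Scgb1a1-TD plates A2, A3 and A4. Pooled, it was 3.81-fold higher in tracer BASCs (log2 ratio 1.93), and the median cell had 5394 CPM in tracer BASCs and 2014 CPM in Scgb1a1-TD BASCs. Both tracer plates lay above all Scgb1a1-TD plates. Sftpc (ENSMUSG00000022097, chromosome 14, 70520949 to 70524081) stood at 163405 and 192820 CPM on the tracer plates, against 245927, 265753 and 243823 CPM on the Scgb1a1-TD plates, a log2 ratio of -0.56 with no overlap. Sftpc alone took 17.5% of all reads in tracer BASCs and 25.8% in Scgb1a1-TD BASCs; CPM of the other genes share what is left. Both genes may have served to assign the sub-type, so their levels describe the annotated cells.

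The other AT2 markers were mostly close to level. Of 18 AT2 markers measured, none was 2-fold higher and 2 were 2-fold lower in tracer BASCs (median log2 ratio -0.01, 0.18 for all genes). The surfactant gene Sftpb had 11024 CPM in tracer BASCs and 10813 CPM in Scgb1a1-TD BASCs, and Sftpa1 had 52041 and 52791 CPM. The lower members were Lyz1, a lysozyme gene, at 2204 against 4426 CPM, and Fabp5, a fatty acid binding protein gene, at 276 against 680 CPM. Lyz2, a close copy of Lyz1, went the other way, at 86640 against 66319 CPM, and reads can be shared between such copies. Club markers leaned higher: 7 of 16 measured were 2-fold higher and 1 lower (median 0.70), the lower one being Kdr, which also marks endothelium. Cyp2b10, a cytochrome P450 gene, had 194 and 657 CPM on the tracer plates, against 274, 33.6 and 37.7 CPM on the Scgb1a1-TD plates, which overlap. The retinal dehydrogenase gene Aldh1a1 had 34.97 and 53.2 CPM, against 30.3, 16.2 and 4.71 CPM, with both tracer plates above. Scgb3a1 and Hp, further club products, were near level at log2 ratios of 0.13 and 0.11. Checked against the label, the summed AT2 markers stood at 362018 CPM in tracer BASCs and 427524 CPM in Scgb1a1-TD BASCs, and the summed club markers at 27035 and 12984 CPM, against 251534 CPM in club cells of BASCs-Tracer and 380332 CPM in club cells of Scgb1a1-TD. Among lineage transcription factors, 1 of 16 was higher and 1 lower (median 0.09). The airway factor Sox2 had 13.6 and 19.7 CPM on the tracer plates, against 0, 5.05 and 2.68 CPM on the Scgb1a1-TD plates. Foxa2, a forkhead factor of lung epithelium, had 58.4 and 39.1 CPM, against 110, 65.5 and 211 CPM.

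The genes that mark this contrast are Cxcl1, Hspa1a and Thbs1, higher in tracer BASCs, and Gpx3, lower. Cxcl1 (ENSMUSG00000029380, chromosome 5, 90891241 to 90893115) encodes a chemokine that attracts neutrophils. It stood at 192 and 110.9 CPM on the tracer plates, against 2.61, 10.3 and 16.8 CPM on the Scgb1a1-TD plates. Pooled, this was 161 CPM (interval 159 to 164) in tracer BASCs and 11.9 CPM (10.9 to 13.05) in Scgb1a1-TD BASCs, 12.6-fold. No plate overlapped, and the log2 ratio of the 6 plate pairs ran from 2.65 to 5.74; it was 3.65 pooled and 2.97 with 10 CPM added. With each cell thinned to 100000 reads, 41 tracer BASCs (30.8%, 23.1% to 39.4%) had 10 or more reads of Cxcl1, against 2 of 37 Scgb1a1-TD BASCs (5.41%, 0.661% to 18.2%). Ciliated cells of Scgb1a1-TD, another type on the same plates, reached 10 reads in 0 of 24, which allows a share of up to 12.5% (exact interval up to 14.2%). Without thinning the shares of BASCs were 39.1% in tracer and 13.2% in Scgb1a1-TD.

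Hspa1a (ENSMUSG00000091971, chromosome 17, 34969190 to 34972156, minus strand) encodes an inducible HSP70 chaperone. It stood at 39.1 and 94.5 CPM on the tracer plates, against 0.523, 3.02 and 0.0813 CPM on the Scgb1a1-TD plates, where the values of plates A2 and A4 rest on 1 read each. Pooled levels were 60.04 CPM (58.6 to 61.5) in tracer BASCs and 1.99 CPM (1.57 to 2.48) in Scgb1a1-TD BASCs, 20.4-fold (log2 ratio 4.35), with no overlap of plates. The log2 ratio was 2.55 with 10 CPM added, 3.71 without plate A2, 4.999 without plate A1, 5.74 without plate A3 and 4.94 with plates weighted equally. After thinning, 17 tracer BASCs (12.8%, 7.63% to 19.7%) had 10 or more reads, against 0 of 37 Scgb1a1-TD BASCs, which allows up to 8.11% (exact interval up to 9.49%). The unthinned shares were 21.7% in tracer and 5.26% in Scgb1a1-TD BASCs. Within tracer BASCs 1 cell held 19.7% of its reads. Hspa1b, a near-identical neighbour copy, stayed under 5 CPM in both groups, and reads that match both copies may have been left uncounted.

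Thbs1 (ENSMUSG00000040152, chromosome 2, 118111876 to 118127133) encodes thrombospondin 1, a matrix glycoprotein. It stood at 271 and 599 CPM on the tracer plates, against 97.8, 66.8 and 12.7 CPM on the Scgb1a1-TD plates. The pooled levels were 395 CPM (391 to 399) in tracer BASCs and 51.5 CPM (49.3 to 53.8) in Scgb1a1-TD BASCs, 7.54-fold, again without overlap. A single tracer cell held 29.5% of the tracer reads and a single Scgb1a1-TD cell 34.03% of the others, and the mean over cells gave a log2 ratio of 2.08 in place of 2.92. Without plate A1 the ratio was 3.52, and without plate A3 it was 3.98. The median cell had 50.8 CPM in tracer BASCs and 1.64 CPM in Scgb1a1-TD BASCs. After thinning, 45.1% of tracer BASCs (36.5% to 53.97%) had 10 or more reads, against 18.9% of Scgb1a1-TD BASCs (7.96% to 35.2%); the unthinned shares were 55.1% and 28.9%. Ciliated cells of Scgb1a1-TD reached 10 reads in 10 of 24 after thinning. An unnamed gene model, Gm29233, overlaps Thbs1 on the other strand, so its reads may be shared.

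Gpx3 (ENSMUSG00000018339, chromosome 11, 54902453 to 54910377) encodes a secreted glutathione peroxidase that removes peroxides. It stood at 93.97 and 29.5 CPM on the tracer plates, against 310, 817 and 537 CPM on the Scgb1a1-TD plates. Pooled levels were 69.6 CPM (68.05 to 71.2) in tracer BASCs and 706 CPM (698 to 714) in Scgb1a1-TD BASCs, a log2 ratio of -3.32 (-4.54 without plate A1), and no plate overlapped. Of the reads in tracer BASCs, 45.5% came from 1 cell, so the typical cells of the lines lay farther apart than the pools: the median cell had 1.05 CPM in tracer BASCs and 479 CPM in Scgb1a1-TD BASCs. After thinning, 10 tracer BASCs (7.52%, 3.66% to 13.4%) had 10 or more reads of Gpx3, against 30 of 37 Scgb1a1-TD BASCs (81.1%, 64.8% to 92.04%). The unthinned shares were 10.9% in tracer and 78.9% in Scgb1a1-TD BASCs. In BASCs of Sftpc-TD 0 of 11 thinned cells reached 10 reads, which allows up to 27.3% (exact interval up to 28.5%). In ciliated cells of Scgb1a1-TD 5 of 24 did. Gpx3 was the 1 lower member of its list: of 29 antioxidant and glutathione genes measured, 5 were 2-fold higher and 1 was lower (median 0.23). Gpx1, the main cytosolic peroxidase gene, had 538 CPM in tracer BASCs and 618 CPM in Scgb1a1-TD BASCs, and the catalase gene Cat had 726 and 705 CPM.

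**Figure D1:**
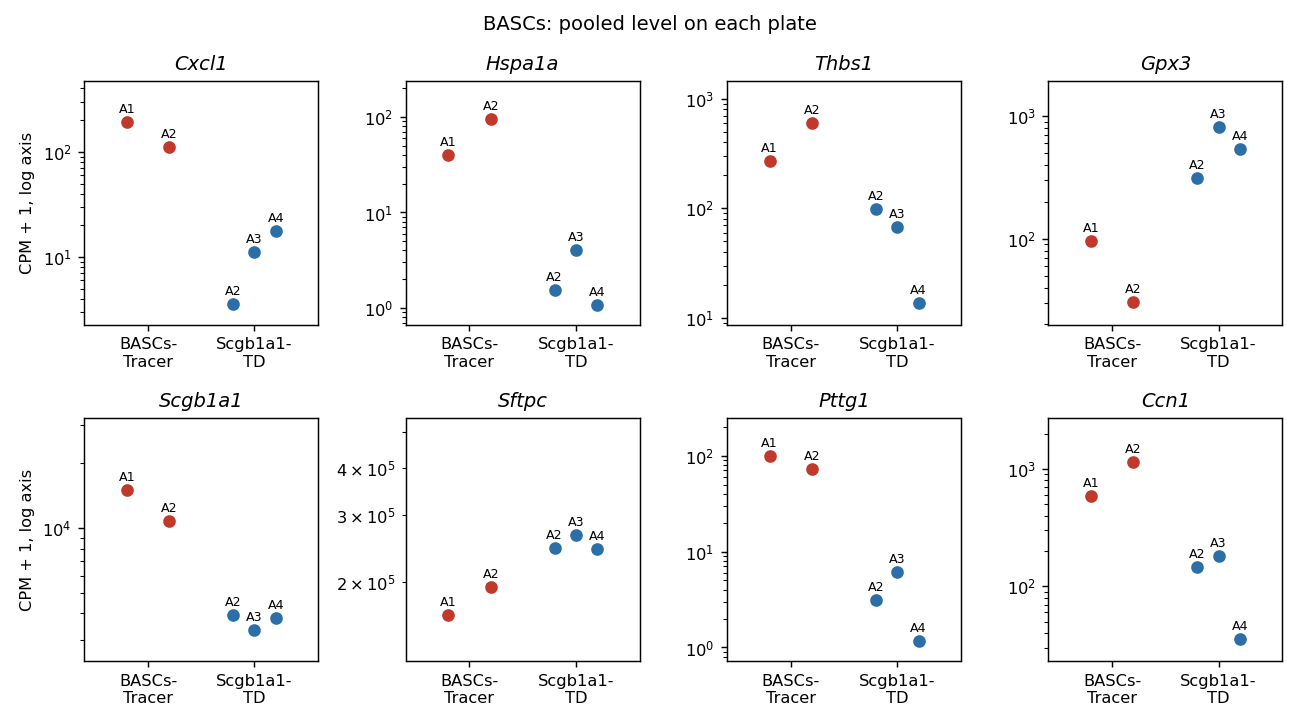
Pooled level (CPM plus 1, log axis) of 8 genes in BASCs on each plate. Each point is the summed reads of 1 line on 1 plate, BASCs-Tracer in red (plates A1 and A2) and Scgb1a1-TD in blue (plates A2, A3 and A4); for Cxcl1, Hspa1a, Thbs1, Scgb1a1, Pttg1 and Ccn1 the red points lie above all blue ones, and for Gpx3 and Sftpc below.

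**Figure D2:**
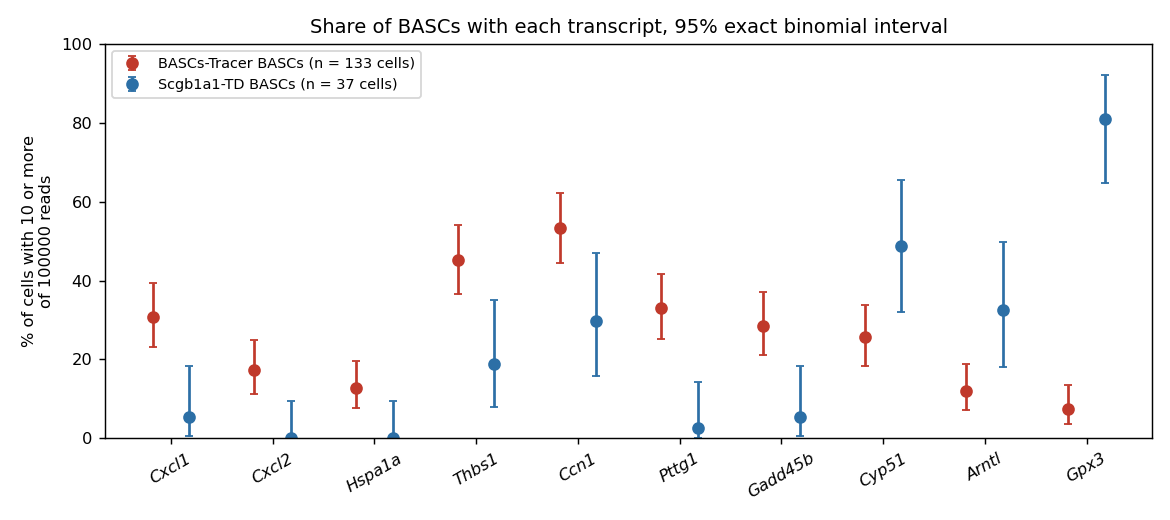
Share of cells with 10 or more reads after thinning each cell to 100000 reads, in BASCs of BASCs-Tracer (red, 84 cells on plate A1 and 49 on plate A2) and 37 BASCs of Scgb1a1-TD (blue), with exact binomial intervals at the 95% level that cover counting error only. Gpx3 reached 10 reads in 7.52% of tracer BASCs and 81.1% of Scgb1a1-TD BASCs, while Cxcl1 did so in 30.8% and 5.41%.

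Cxcl1 and Hspa1a belong to wider sets. Of 25 chemokine genes 13 were measured, of which 8 were 2-fold higher and 1 lower in tracer BASCs (median log2 ratio 2.86, or 2.76 with Ccl2, absent from Scgb1a1-TD BASCs, set to the limit of 3 reads). Cxcl2, a second neutrophil attractant, had 48.5 and 69.3 CPM on the tracer plates, against 0.523, 1.17 and 3.33 CPM on the Scgb1a1-TD plates. Cxcl10, an interferon-induced attractant of T cells, had 34.6 and 12.03 CPM, against 0.523, 0.0392 and 0 CPM, which is 2 reads in all in Scgb1a1-TD BASCs. The constitutive lung chemokine Cxcl15 was near level at 6922 CPM in tracer BASCs and 7823 CPM in Scgb1a1-TD BASCs, and Cxcl16 had 93.1 and 91.7 CPM. The median of this list depended on rare transcripts: it was 0.02 over members read in at least 50% of the cells of both groups, and 1.80 without the 11 BASCs that carried leukocyte transcripts, both settings chosen after seeing the data. Cxcl1 itself kept a log2 ratio of 3.62 without those cells.

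NF-kappa B feedback and target genes followed with 8 of 20 higher and none lower (median 0.82). Nfkbia, which encodes the inhibitor IkB alpha and is itself a rapid target, had 1399 and 1590 CPM on the tracer plates, against 377, 514 and 499 CPM on the Scgb1a1-TD plates. Nfkbiz, a nuclear cofactor of the pathway, had 271 and 219 CPM, against 38.7, 75.2 and 154 CPM. The deubiquitinase gene Tnfaip3 had 59.9 and 88.2 CPM, against 1.05, 29.2 and 3.58 CPM. All of these were separated by plate. Sod2, the mitochondrial superoxide dismutase gene and also an NF-kappa B target, went the other way at 131.6 and 103.1 CPM, against 169, 201 and 166 CPM. The list median was 0.17 on plate A2 alone, below the median of all genes there (0.29).

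The promoter letters of 3 of these genes are shown because they were higher together and their families are known targets of heat shock factor or NF-kappa B. They are RefSeq windows of GRCm38.p6, 250 bases before to 50 after the annotated start, 5′ to 3′ on the gene's strand, with matches to the motifs below in capitals.
Hspa1a (chr17:34972107-34972406, minus strand): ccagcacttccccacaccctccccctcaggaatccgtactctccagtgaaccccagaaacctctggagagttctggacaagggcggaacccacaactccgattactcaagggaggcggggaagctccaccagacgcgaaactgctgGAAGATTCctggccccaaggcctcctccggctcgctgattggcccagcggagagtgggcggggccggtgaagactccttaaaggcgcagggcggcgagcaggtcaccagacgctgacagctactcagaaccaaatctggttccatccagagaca
Cxcl1 (chr5:90890995-90891294, plus strand): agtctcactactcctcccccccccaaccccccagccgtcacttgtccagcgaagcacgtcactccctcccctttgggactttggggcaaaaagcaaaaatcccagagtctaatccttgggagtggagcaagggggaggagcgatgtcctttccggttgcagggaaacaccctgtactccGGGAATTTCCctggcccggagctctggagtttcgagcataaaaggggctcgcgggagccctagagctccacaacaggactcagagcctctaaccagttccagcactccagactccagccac
Cxcl2 (chr5:90903649-90903948, plus strand): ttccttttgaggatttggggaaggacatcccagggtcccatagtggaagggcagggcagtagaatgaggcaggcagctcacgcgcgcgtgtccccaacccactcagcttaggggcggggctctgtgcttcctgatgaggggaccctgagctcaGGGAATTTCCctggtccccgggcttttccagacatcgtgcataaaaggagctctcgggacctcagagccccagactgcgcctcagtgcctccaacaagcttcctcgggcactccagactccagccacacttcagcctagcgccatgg
On both strands, 5 motifs were searched: GAANNTTC (a pair of heat shock element half-sites), TGANTCA (AP-1), TGACGTCA (CRE), the CArG box and the kappa B site. No 2 matches overlapped. Hspa1a held GAANNTTC once, a motif found in 7.86% of the 32851 promoter windows of the table, and both chemokine genes held the kappa B site once (5.81% of windows). The window of Gadd45b, the immediate early gene with the largest ratio that met the naming rule, held none of the motifs. TGANTCA was found in 7.81%, TGACGTCA in 1.79% and the CArG box in 1.63% of windows. A match is a run of letters and not evidence of binding.

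Heat shock and chaperone genes had 6 of 19 members 2-fold higher and none lower (median 0.84). Hspa8, the constitutive HSP70 gene, had 1482 and 1959 CPM on the tracer plates, against 845, 669 and 733 CPM on the Scgb1a1-TD plates, with no overlap. Hsp90aa1, the inducible HSP90 gene, had 743 and 846 CPM, against 690, 373 and 427 CPM. Hsph1, a nucleotide exchange factor for HSP70, had 43.2 and 53.9 CPM, against 1.57, 15.98 and 0.163 CPM. The small heat shock protein genes Hspb8 and Cryab were level, with log2 ratios of -0.01 and 0.02, and so was the mitochondrial chaperonin gene Hspd1 at -0.04. The list median was 0.28 on plate A2, close to that of all genes there. Endoplasmic reticulum stress genes, another chaperone class, had 2 of 19 higher and 1 lower (median 0.59, -0.50 to 0.65 over plate pairs). On plate A2 alone 1 of 19 was higher and 5 were lower (median -0.42). Of all genes measured there, 40.1% were higher and 25.6% lower (median 0.29), so the count of lower members is near the share of all genes.

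Immediate early genes were higher more evenly: 14 of 33 were 2-fold higher, none was 2-fold lower, and 11 of the 14 were separated by plate (median 0.92; 0.75 to 1.18 over plate pairs). Gadd45b, a stress sensor gene, had 90.5 and 85.8 CPM on the tracer plates, against 8.89, 15.8 and 10.97 CPM on the Scgb1a1-TD plates. Ier5 had 170 and 196 CPM, against 34.5, 37.8 and 39.5 CPM. Junb, an AP-1 gene, had 868 and 470 CPM, against 400, 277 and 363 CPM. Egr1, a zinc finger factor, had 1511 and 1929 CPM, against 662, 923 and 1041 CPM, and its log2 ratio was 0.82. The AP-1 gene Fos was close to level, with 3444 and 2384 CPM, against 2633, 2630 and 2539 CPM, which overlap.

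Growth factor and wound genes had 18 of 26 members higher and 2 lower (median 1.25), 10 of the 18 separated by plate. Ccn1, a matricellular target of YAP that is also known as Cyr61, had 584 and 1150 CPM on the tracer plates, against 144.3, 179 and 34.5 CPM on the Scgb1a1-TD plates. Hbegf, a ligand of the EGF receptor, had 282 and 385 CPM, against 41.3, 60.9 and 52.8 CPM. Areg, another such ligand, overlapped between plates at 93.3 and 179 CPM, against 170, 45.7 and 15.3 CPM. The keratin pair Krt8 and Krt18 of simple epithelia was higher by log2 ratios of 1.29 and 1.32, with all plates apart. Errfi1, an inhibitor of the EGF receptor, is counted in the glucocorticoid response list below and not in this one. It had 926 and 1480 CPM, against 343, 329 and 572 CPM. Sprr1a, a cornified envelope gene, was lower, at 0.0563 CPM (6 reads) in tracer BASCs and 19.1 CPM in Scgb1a1-TD BASCs, where 1 cell of plate A2 held all 760 reads.

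Hormone and clock genes also differed. Of 10 glucocorticoid response genes measured, 6 were higher, none was lower and all 6 were separated by plate (median 1.21). This list is not separate from the others. It shares Dusp1 and Sgk1 with the immediate early genes, Per1 with the clock genes and Mt2 with the antioxidant genes. Zbtb16, a zinc finger factor induced by glucocorticoids, had 25.2 and 81.4 CPM on the tracer plates, against 1.05, 9.52 and 5.12 CPM on the Scgb1a1-TD plates. Klf9 had 168 and 142.1 CPM, against 77.9, 68.2 and 76.1 CPM. Of 15 circadian clock genes, 8 were higher and 1 lower, and all 9 were separated by plate (median 1.27). The repressor gene Nr1d1 had 217 and 97.3 CPM, against 64.9, 50.8 and 5.69 CPM. Tef and Dbp, output factors of the clock, had 34.4 and 16.5 CPM in tracer BASCs, against 1.21 and 0.956 CPM in Scgb1a1-TD BASCs. Arntl, the activator whose transcript runs in antiphase to Nr1d1 and Dbp, had 50.4 and 3.48 CPM on the tracer plates, against 64.3, 80.7 and 72.7 CPM. The labels used here give no hour of collection. Without plate A1 the clock median was 0.61.

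**Figure D3:**
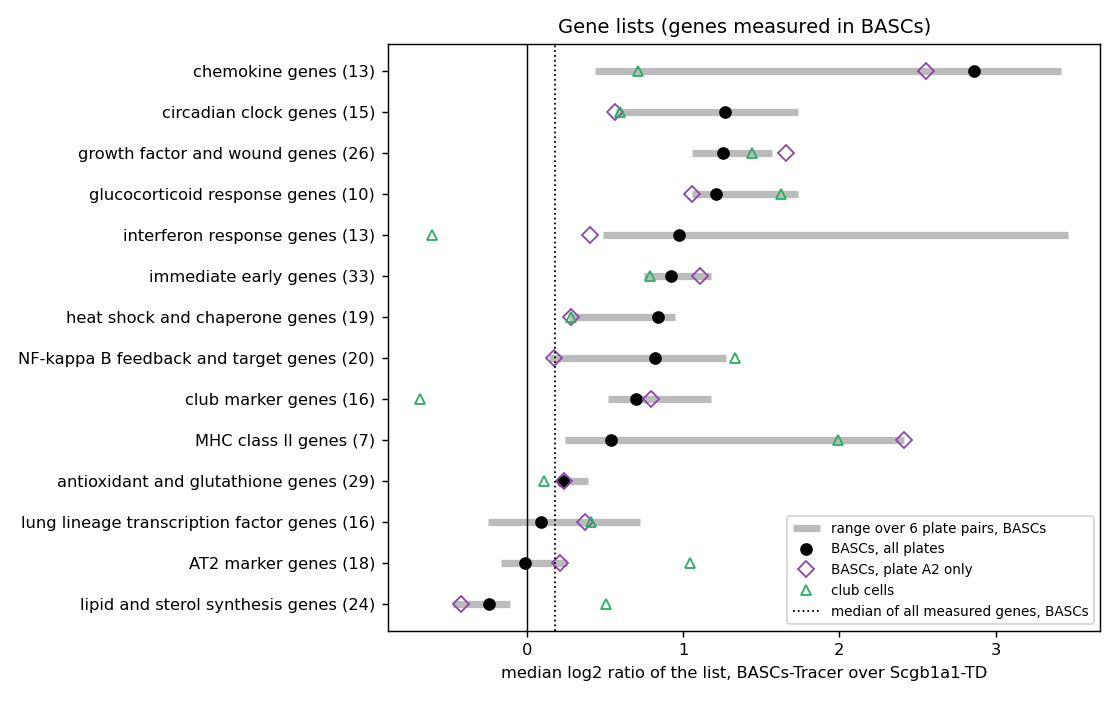
Median log2 ratio (BASCs-Tracer over Scgb1a1-TD) of 14 gene lists: black points for BASCs pooled over plates, grey bars for the range over the 6 plate pairs with the same genes, purple diamonds for BASCs on plate A2 with the genes measured there, green triangles for club cells. The dotted line is the median of all measured genes in BASCs (0.18); growth factor and wound genes lay at 1.25 in BASCs and 1.44 in club cells, club markers at 0.70 and -0.68.

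Lipid and sterol synthesis genes had a median below that of all genes. Of 24 measured, 1 was 2-fold higher and 3 were lower (median -0.25, -0.47 to -0.11 over plate pairs, 0.18 for all genes); the count of lower members is near the 10.2% of all measured genes. Cyp51, the lanosterol demethylase gene, had 69.6 and 58.04 CPM on the tracer plates, against 150, 166 and 142.5 CPM on the Scgb1a1-TD plates. Sqle, the squalene epoxidase gene, had 71.1 and 104.2 CPM, against 132.8, 178 and 171 CPM. Fdft1, the squalene synthase gene, overlapped between plates. Scd1, a fatty acid desaturase gene and the most abundant member, had 7393 and 7813 CPM, against 10780, 14508 and 14136 CPM (log2 ratio -0.91). Its relative Scd2 had 450 and 277 CPM, against 696, 661 and 765 CPM. Chka, a choline kinase gene, was the higher member, at 688 CPM in tracer BASCs and 271 CPM in Scgb1a1-TD BASCs, but not on plate A2 (log2 ratio -0.55).

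Genes were also named by size, among those with 50 CPM or more in the higher group, a read in 25% or more of its cells, at most 25% of its reads in 1 cell, 1 direction over the 6 plate pairs, and 2-fold or more on plate A2. These conditions held for 1.12% of measured genes in the higher and 0.249% in the lower direction, and the 12 largest of each are given. Thbs1, with 29.5% of its reads in 1 cell, and the cytokine gene Il6, at 48.2 CPM, were left out by them although their log2 ratios of 2.92 and 4.12 exceed some of those named. The higher ones were Ccrl2, F2r, Hspa1a, Cxcl2, Pttg1, Cxcl1, Krtap17-1, Yod1, Wdfy1, Retreg1, Gadd45b and Ccn1, with log2 ratios of 5.06 down to 2.58. Ccrl2, a receptor that binds chemerin without signalling, had 80.04 and 18.6 CPM on the tracer plates, against 7.84, 0.548 and 0 CPM on the Scgb1a1-TD plates. F2r, the thrombin receptor gene, had 54.3 and 50.1 CPM, against 23.5, 0.0392 and 0.163 CPM, and 1 cell held 81.2% of its reads in Scgb1a1-TD BASCs. Pttg1, the securin gene, had 98.4 and 72.2 CPM, against 2.09, 5.13 and 0.163 CPM, and 1 cell held 94.9% of the Scgb1a1-TD reads. After thinning, 33.1% of tracer BASCs (25.2% to 41.8%) had 10 or more reads of Pttg1, against 1 of 37 Scgb1a1-TD BASCs (2.70%, 0.0684% to 14.2%). Wdfy1, a phosphoinositide-binding endosomal adaptor, had 118.8 and 107.3 CPM, against 5.75, 7.13 and 31.9 CPM. The lower ones were Gpx3, Tspan8, Tcta, Slc25a1, Fam91a1, Hist1h2bc, Cyp51, Arntl, Nsdhl, Abhd17b, Bdp1 and Mvd, with log2 ratios of -3.32 to -1.15. Slc25a1 encodes the mitochondrial carrier that exports citrate. Nsdhl, a sterol dehydrogenase gene, had 58.2 and 64.6 CPM on the tracer plates, against 135.98, 132.01 and 150 CPM on the Scgb1a1-TD plates. Mvd, the mevalonate diphosphate decarboxylase gene, had 38.2 and 26.8 CPM, against 55.96, 74.4 and 83.9 CPM. Yod1, Mvd, Cyp51, Wdfy1, Tcta and others overlap a neighbouring gene in the annotation, so reads may be shared.

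Plate A2 holds both lines side by side. There 40.1% of 9547 measured genes were 2-fold higher and 25.6% lower in its 53 tracer BASCs than in its 5 Scgb1a1-TD BASCs. With so few cells a 2-fold difference was common in both directions, and few counts can be read beyond this background. The 4 marker genes had log2 ratios there of 4.95 for Cxcl1, 5.97 for Hspa1a, 2.60 for Thbs1 and -3.35 for Gpx3. The cells of plate A2 are part of the pooled ratios. Cxcl1, Hspa1a and Gpx3 were also named by a rule that required 2-fold on plate A2. The direction of the markers on this plate is therefore not a separate check. In the 5 Scgb1a1-TD cells Cxcl1 rested on 5 reads (0.849 to 6.10 CPM), Hspa1a on 1 read (0.0132 to 2.91 CPM), Thbs1 on 187 reads and Gpx3 on 593 reads. Scgb1a1 had a log2 ratio of 1.45 and Sftpc one of -0.35 on this plate. Immediate early genes were higher for 18 of 33 and lower for 2 (median 1.11), and growth factor and wound genes higher for 15 of 24 and lower for 2 (1.66). Single members turned: Dusp1, Klf4 and Csrnp1 had log2 ratios of -0.85, -0.59 and -0.33 on plate A2, against 0.58, 1.22 and 3.73 over all plates.

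**Figure D4:**
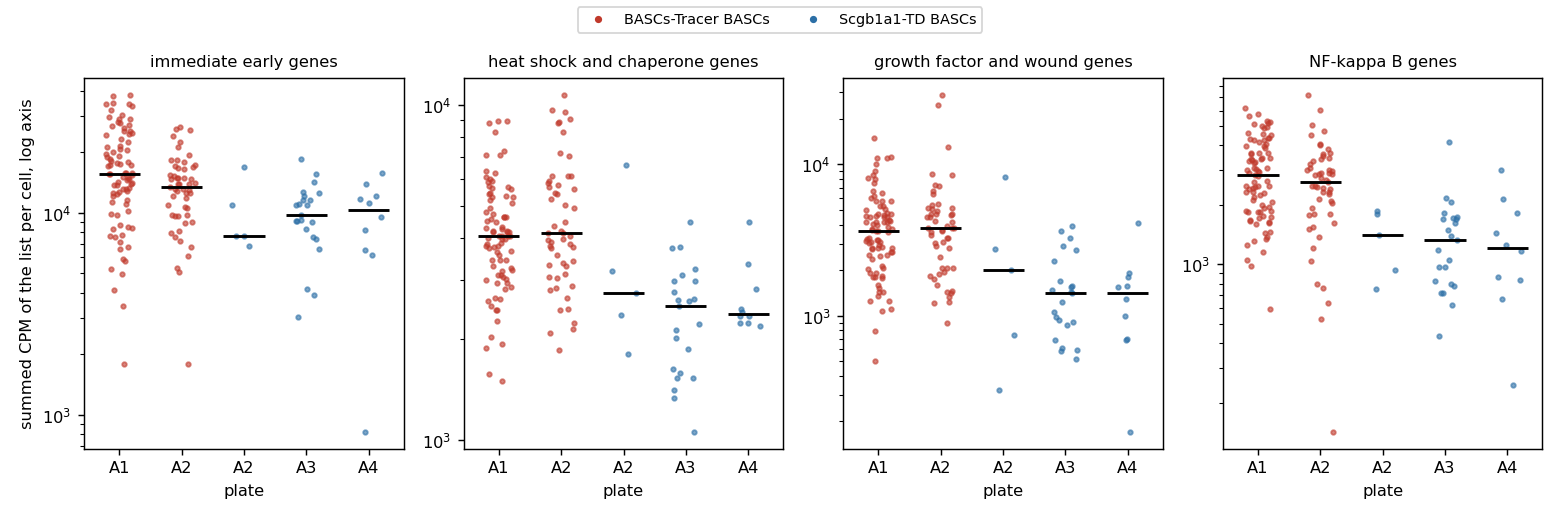
Summed CPM of 4 gene lists in each BASC (1 point per cell, log axis) by plate, BASCs-Tracer in red on plates A1 and A2 and Scgb1a1-TD in blue on plates A2, A3 and A4; black bars are medians of cells. The red medians lie above all blue medians in each panel, and the cells overlap.

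For immediate early, growth factor, heat shock and NF-kappa B genes, single cells of both lines overlapped while plate medians did not. The summed level of immediate early genes per cell had a median of 15575 and 13335 CPM on the tracer plates, against 7694, 9694 and 10307 CPM on the Scgb1a1-TD plates. Cells ran from 1785 to 38307 CPM in tracer BASCs and from 822 to 18418 CPM in Scgb1a1-TD BASCs. For growth factor and wound genes the medians were 3629 and 3786 CPM, against 2015, 1421 and 1419 CPM. For heat shock and chaperone genes they were 4051 and 4144 CPM, against 2743, 2509 and 2371 CPM, and for NF-kappa B genes 2820 and 2624 CPM, against 1402, 1336 and 1215 CPM. The plate medians did overlap for other lists. Those of chemokine genes were 7643 and 7863 CPM, against 6553, 8304 and 6637 CPM, and those of circadian clock genes 784 and 420 CPM, against 509, 277 and 219 CPM. Across the 85 and 53 tracer BASCs of both plates, Spearman's rho between pairs of these 4 sums lay between 0.11 and 0.35, and across the 38 Scgb1a1-TD BASCs between 0.22 and 0.44. Cells share 1 total in CPM and are not replicates, so these are descriptions.

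Club cells of the same lines (15 of BASCs-Tracer, 97 of Scgb1a1-TD) show whether a difference was seen in another cell type. In club cells 21.1% of 10475 measured genes were 2-fold higher and 29.1% lower in BASCs-Tracer. Of the 1758 higher genes of BASCs that were measured in club cells, 26.3% were also 2-fold higher there and 31.9% were 2-fold lower, against 18.7% and 26.9% of all genes measured in BASCs. Of 667 lower genes, 43.6% were also lower in club cells, against 26.9% of all genes. Pooled over plates, 5 of the 12 named higher genes were 2-fold higher in club cells as well, and none was 2-fold lower. The 5 were Cxcl1, Cxcl2, Pttg1, Hspa1a and Ccn1. In all plate pairs of club cells, 4 of the 12 went the same way, and Cxcl2 did not. In club cells Cxcl2 had 0.997 and 174 CPM on tracer plates A1 and A2, against 4.72, 6.33 and 31.2 CPM on the Scgb1a1-TD plates. Cxcl1 stood at 276 CPM in club cells of BASCs-Tracer and 5.07 CPM in those of Scgb1a1-TD, Thbs1 at 1346 and 90.03 CPM, and Pttg1 at 57.9 and 5.53 CPM. Gpx3 stood at 20.7 CPM in club cells of BASCs-Tracer and 144.6 CPM in those of Scgb1a1-TD, with 0 of 13 cells (which allows up to 23.1%, exact interval up to 24.7%) and 29 of 94 cells (30.9%) at 10 or more reads after thinning. Of the 12 named lower genes 6 were 2-fold lower in club cells and 2, Bdp1 and Tspan8, were 2-fold higher. In all plate pairs of club cells, 3 of these 12 were lower. Growth factor and wound genes had a median of 1.44 in club cells, NF-kappa B genes 1.33 and immediate early genes 0.79, against -0.07 for all genes. Club markers went the other way in club cells (median -0.68), and so did interferon response genes (-0.61, against 0.97 in BASCs).

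**Figure D5:**
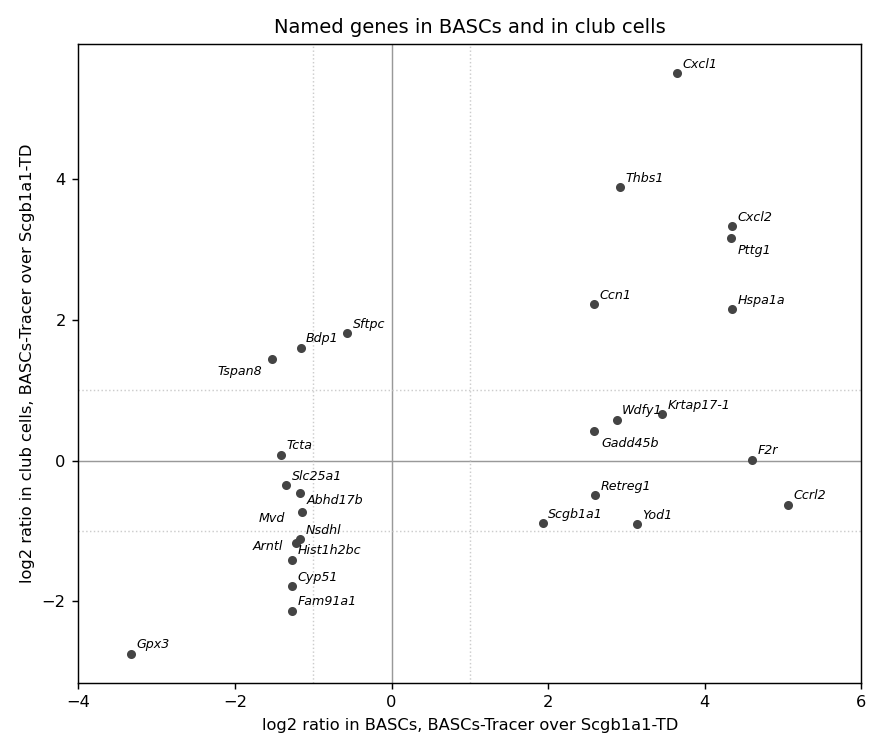
Log2 ratio (BASCs-Tracer over Scgb1a1-TD) of the 24 genes named by size and of Scgb1a1, Sftpc and Thbs1, in BASCs (horizontal axis) and in club cells (vertical axis), 1 point per gene; dotted lines mark 2-fold. Cxcl1, Thbs1, Cxcl2, Pttg1, Hspa1a and Ccn1 lie higher in both cell types and Gpx3 lower in both, while Scgb1a1 and Sftpc change sides. Values are pooled over plates, and Cxcl2 in club cells was lower on tracer plate A1 than on every Scgb1a1-TD plate.

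The 11 BASCs of Sftpc-TD (4 on plate A4, 7 on plate A5) were set beside both. For 10 of the 12 named higher genes their pooled level lay above all 3 Scgb1a1-TD plates, and for 10 of the 12 named lower genes below all of them. The named genes were chosen for their distance from the Scgb1a1-TD plates, so another group tends to fall on the tracer side. No share over all measured genes was counted, so these counts do not show which line the Sftpc-TD BASCs resemble. Plate by plate, 6 of the 12 higher genes lay above on plate A4 and 8 on plate A5, but only Pttg1, Retreg1, Gadd45b and Ccn1 on both; of the lower genes 11 lay below on plate A4 and 10 on plate A5. Pttg1 stood at 73.1 and 91.6 CPM on their plates A4 and A5, near the tracer BASCs. The Scgb1a1-TD BASCs on plate A4 had 0.163 CPM of it, while ciliated cells of Scgb1a1-TD, pooled over plates, had 55.2 CPM. Gpx3 stood at 0.199 and 1.72 CPM in BASCs of Sftpc-TD, below both other lines. Thbs1 stood at 231 and 414 CPM there. Cxcl1, Cxcl2 and Hspa1a differed between the plates of Sftpc-TD BASCs, at 0.598, 0.199 and 0.398 CPM on plate A4 but 216, 71.5 and 70.9 CPM on plate A5. Ccrl2 did likewise at 0.199 and 57.3 CPM, and F2r the other way at 97.6 and 0.132 CPM. The number of cells per plate limits these values.

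Transcripts of other cell types were low but not equal. Of 12 pan-leukocyte markers 8 were measured, 6 of them 2-fold higher and 1 lower. Their summed level was 264 and 99.5 CPM on the tracer plates, against 244, 293 and 206 CPM on the Scgb1a1-TD plates, most of it Lcp1, an actin-bundling gene that these BASCs carried at 125.97 CPM in tracer and 253 CPM in Scgb1a1-TD. Leaving Lcp1 aside, 10 tracer BASCs (of 85 and 53) and 1 of 38 Scgb1a1-TD BASCs held 50 CPM or more of these markers. Ptprc, the defining leukocyte gene, had 12.5 CPM in tracer BASCs, 90.8% of it in 1 cell, and 0.0252 CPM (1 read) in Scgb1a1-TD BASCs; Coro1a, Rac2, Cd48 and Arhgdib were at 0 in Scgb1a1-TD BASCs. Without these 11 cells the log2 ratios of Cxcl1, Hspa1a, Thbs1 and Gpx3 were 3.62, 4.37, 2.94 and -3.21. With Lcp1 counted, 67 tracer BASCs and 23 of 38 Scgb1a1-TD BASCs reached 50 CPM, and without all of these the ratios were 4.70, 3.19, 2.85 and -3.36. Endothelial markers were lower for 4 of 8 measured and higher for none (median -0.78), and summed to 229 and 107.9 CPM on the tracer plates, against 429, 436 and 72.5 CPM on the Scgb1a1-TD plates. In Scgb1a1-TD BASCs 1 cell held 89.3% of the reads of Cldn5. Of 10 mesenchymal markers 5 were measured, and 4 of these were higher (median 2.10). Their list summed to 321 and 96.03 CPM on the tracer plates, against 152.7, 63.6 and 62.5 CPM on the Scgb1a1-TD plates, which overlap. In tracer BASCs 1 cell held 87.1% of the reads of Acta2, and 1 cell held 53.7% of those of Inmt. The part of endothelial and mesenchymal transcripts in the results was not tested.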

How the data were processed

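Single cells were sorted from digested mouse lung and read by a full-length protocol with SuperScript II, KAPA HiFi and Nextera XT, per the labels' protocols. The authors deposited 1 table of raw read counts per gene, without molecular identifiers. HISAT2, HTSeq and GRCm38 are named, per the submitters' processing notes; no source used here gives their versions or strand settings. Gene identifiers were matched to GENCODE M21 symbols (53274 of 53379). Columns of per-sample values left unused numbered 0.

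Counts were summed over the cells of a group, or of a group on 1 plate, and divided by their total to give CPM. The log2 ratio added 1 CPM. A gene was measured at 5 CPM or more in either group and counted at 2-fold. Each line is 1 sample, so no test was run. Named genes are the 12 largest per direction with 50 CPM or more in the higher group, reads in 25% or more of its cells, at most 25% of its reads in 1 cell, 1 direction in all 6 plate pairs and 2-fold on plate A2, leaving out mitochondrial, ribosomal and unnamed models, plus the markers and the 4 most abundant members of each list. The members and gene lists were chosen with earlier results of these data known. Intervals are exact Poisson for CPM and Clopper-Pearson for shares. For shares, cells were thinned to 100000 reads. The pooled step was tested on simulated data that held no plate or animal differences, so that test does not bear on them. Alternatives changed 1 choice at a time; a value counts as moved beyond 1.5-fold, or beyond its interval for a share, and as reversed where a 2-fold value changed sign. Python 3.11.15, numpy 2.4.6, pandas 2.3.3 and scipy 1.17.1 were used.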

Additional observations from a re-analysis of the deposited data

Results flagged for a closer look

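For 6 genes every plate pair of BASCs went one way between the lines and every plate pair of club cells the other. The difference was not tested. All 6 come from the genes named by size or from the gene lists, and no count over all measured genes is given. Scgb1a1 and Sftpc may have served to assign the sub-types. The log2 ratio of BASCs-Tracer over Scgb1a1-TD was 1.93 in BASCs and -0.89 in club cells for Scgb1a1. For Sftpc it was -0.56 in BASCs and 1.82 in club cells. The fatty acid synthase gene Fasn had -0.43 in BASCs and 1.29 in club cells, and the fatty acid elongase gene Elovl1 had -0.66 and 0.68. The mucosal chemokine gene Cxcl17 had 0.28 in BASCs and -1.39 in club cells. The deubiquitinase gene Yod1 had 3.13 in BASCs and -0.91 in club cells.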

How the results depend on the processing

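No paired analysis was possible because each line is 1 sample and no result comes from a test. Counts of genes 2-fold higher and lower were 721 and 239 with 10 CPM added, 4161 and 1716 without a filter, 893 and 404 with a 20 CPM filter, 897 and 290 at 4-fold, and 3828 and 2447 on plate A2 only. The lower count alone moved to 1793 with totals without mitochondrial and top 10 genes, to 1634 without cells that carry leukocyte markers, and to 2220 without plate A1. The chemokine median was 1.65 with plates weighted equally, 2.06 with median-of-ratios scaling, 0.70 with 10 CPM added, 1.59 without a filter, 3.65 with a 20 CPM filter, 1.36 without leukocyte-marker cells and 1.83 without plate A3. The club marker median was 1.53 without leukocyte-marker cells. The clock median was 0.61 without plate A1 and 0.56 on plate A2 only, where the NF-kappa B median was 0.17. The pan-leukocyte median reversed to -1.001 with a 20 CPM filter, -0.82 without leukocyte-marker cells and -1.17 without plate A1. Kdr and Cldn5 reversed to 1.73 and 1.13 without leukocyte-marker cells and to 1.21 and 1.28 without plate A3. On plate A2 only, Acta2 (-0.23), Tyrobp (-0.41), Krt14 (-0.47), Gsn (-0.65) and Ly6a (0.091) reversed. A pair of alternatives was chosen after seeing the data. Over genes read in at least 50% of the cells of both groups, 247 were higher and 46 lower, the chemokine median was 0.021 and the pan-leukocyte median -1.001. Without leukocyte-marker cells, Lcp1 not counted, the chemokine median was 1.80, the pan-leukocyte median -0.99, Chil3 -1.92, Kdr 0.64 and Cldn5 0.89. The cause was not tested. Of the 24 genes named by size none reversed, and 252 of their values stayed within 1.5-fold while 60 moved. These genes were named for 1 direction in all 6 plate pairs and 2-fold on plate A2. Settings that drop or reweight plates therefore could not reverse them, and the absence of reversals there is not a check. The 5 Scgb1a1-TD cells of plate A2 limit what low counts there can show.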

Other observations

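MHC class II genes, which present antigen, had a larger median ratio on plate A2 than over all plates, and MHC class I and antigen processing genes a smaller one. Of 7 MHC class II genes measured in BASCs, 1 was 2-fold higher in BASCs-Tracer and none lower (median log2 ratio 0.54), while on plate A2 the median was 2.41. H2-Ab1, a class II beta chain gene, had 838 and 1510 CPM on the tracer plates A1 and A2, against 283, 416 and 391 CPM on the Scgb1a1-TD plates A2, A3 and A4. Cd74, the invariant chain gene, had 2404 and 4716 CPM, against 1666, 1842 and 1224 CPM. Both genes were separated by plate. Of 12 MHC class I and antigen processing genes, 3 were 2-fold higher and none lower over all plates (median 0.45), against 2 higher and 4 lower on plate A2 (median 0.05). Of all measured genes, 21.1% were higher and 10.2% lower over all plates (median 0.18). On plate A2, with 5 Scgb1a1-TD cells, 40.1% were higher and 25.6% lower (median 0.29). The counts of higher members of both lists over all plates are near the share of all genes. H2-K1, a class I heavy chain gene, had 1111 and 865 CPM on the tracer plates, against 463, 425 and 495 CPM on the Scgb1a1-TD plates, with no overlap.

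Esr1, the estrogen receptor gene, was counted because DreER and CreER carry a part of an estrogen receptor. It had 71.96 and 137.97 CPM on the tracer plates, against 2.61, 20.99 and 24.6 CPM on the Scgb1a1-TD plates, and was at 0 in BASCs of Sftpc-TD. Reads of the transgenes and of the mouse gene cannot be told apart in these counts.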
